A study of Mus musculus with 2 samples.

Results

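The genes described here carry the insulin signal from the cell surface to glucose uptake. They are Insr, Irs1, Irs2, Pik3r1, Akt2, Foxo1, Tbc1d4, Slc2a1 and Slc2a4, 9 genes picked by symbol from the 46095 genes of the count table. Their order follows the pathway from receptor to transporter. All 9 had at least 10 counts over both libraries together, as had 17356 genes of the table.

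C3H10 cells come from mouse embryonic mesenchyme and can be turned into adipocytes. The labels give the strain as C57BL/6, which was not checked against the origin of the line. They give the cell type as a fibroblast precursor with adipogenic ability. In both groups, cells at 70% confluence received 100 nM of an antisense oligonucleotide (ASO) by lipid transfection, grew to confluence and were then induced. The induction medium held troglitazone at 0.5 mg/L, insulin at 10 ng/mL, dexamethasone, given as 5 mM, and the phosphodiesterase inhibitor IBMX at 0.5 mM. After 2 days the medium kept insulin alone, at the same concentration. The control group (NC) received a negative control ASO, and the MALAT1-knockdown group received an ASO against MALAT1, and which of the study's MALAT1 ASOs was sequenced is not named. RNA was profiled at differentiation day 6 in 1 library per group. Insulin was therefore in the medium of both groups, no insulin-free culture was analysed here, and troglitazone, an activator of PPAR-γ and an insulin sensitizer, was part of the induction in both.

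Insulin binding switches on the kinase of its receptor, which phosphorylates the docking proteins IRS1 and IRS2. These recruit PI3-kinase, whose lipid product brings AKT to the membrane, where it is activated. In fat cells AKT2 then restrains TBC1D4, a brake on vesicle movement, so that the transporter GLUT4 moves to the surface. AKT also keeps the transcription factor FOXO1 out of the nucleus, which lowers the output of FOXO1 target genes, Irs2 among them. These steps run through phosphorylation and movement of proteins, and the libraries measured only RNA.

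Irs1 and Irs2 encode the docking proteins, and their promoters are shown because the link from FOXO1 back to Irs2 closes the pathway into a loop. A promoter here is the window from 250 bases before to 50 bases after a gene's start, from RefSeq on GRCm38.p6. The table held 11 such windows for 7 of the 9 genes, and Insr and Slc2a4 had no entry. An insulin response element of the letters TGTTTTG, an E-box of the letters CACGTG and a FoxO site of the letters TGTTTAC were searched on both strands. Of the 11 windows, 2 held TGTTTTG and 2 held CACGTG, in both cases those of Irs1 and Irs2, while TGTTTAC was in 0 of them. Among all 32851 promoter windows, TGTTTTG was in 6.28%, CACGTG in 7.15% and TGTTTAC in 3.65%. The first 2 motifs overlapped or lay at most 1 base apart in 9 windows of the whole table. The sequences below run 5′ to 3′ on the minus strand, from chr1:82291440-82291594 for Irs1 and chr8:11008930-11009013 for Irs2, and capitals mark the motifs. In Irs1 the first run of capitals is an E-box and an insulin response element that overlap, and in Irs2 1 base lies between them. Both stretches end at the base before the RefSeq start, which in both genes lies upstream of the GENCODE start given with the values. A match of letters is a description and not a binding site.
Irs1: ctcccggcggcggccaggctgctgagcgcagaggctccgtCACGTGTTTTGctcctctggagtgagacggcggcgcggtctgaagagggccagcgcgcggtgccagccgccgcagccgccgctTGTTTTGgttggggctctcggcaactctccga
Irs2: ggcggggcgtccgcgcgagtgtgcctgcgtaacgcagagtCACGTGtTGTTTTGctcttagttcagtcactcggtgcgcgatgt

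Counts summed to 58147539 in the NC library and to 61653549 in the MALAT1-knockdown library. The targeted gene was lower in the library labelled MALAT1 knockdown, with 170402 counts of Malat1 in NC cells and 45396 in knockdown cells, which is 24.7% of the control level after scaling. Of 12 mature adipocyte markers, 11 were tested, and Lep had 1 and 0 counts. All 11 markers tested were lower in the knockdown library, with a median log2 ratio of -1.30, and their summed level went from 6604 to 2564 counts per 1000000 (CPM). Of 12 preadipocyte and fibroblast markers tested, 1 (Cd34) was past 1.5-fold higher and 2 (Dcn and Lum) were past 1.5-fold lower. Over all genes tested, 8.29% were past 1.5-fold higher and 11.9% lower. The summed level of the preadipocyte and fibroblast markers went from 19500 to 21311 CPM, with Dlk1 at 0 in both. Of the 6 skeletal muscle markers, Myod1, Myog and Acta1 were at 0 in both libraries. In NC and knockdown cells, Ckm had 1 and 4 counts, Myh3 had 2 and 0, and Tnnt3, the 1 marker tested, had 29 and 47. In RNA from a whole culture, fewer cells of a type and less RNA per cell cannot be told apart, and the part of these marker differences in the results below was not tested.

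Most genes of the axis were slightly lower in MALAT1-knockdown cells, Foxo1 had the lowest ratio among those with many counts, and Irs1 was nearly level. The summed level of the 9 genes was 1787 CPM in NC cells and 1574 CPM in knockdown cells, or 88.1%. Their median log2 ratio was -0.24, beside -0.00290 over all genes tested. The 8 genes other than Slc2a4 had a mean of at least 1000 counts, and their median was -0.24 beside 0.01 over the 8251 genes with that many. Of these 8, 7 lay below the lower quartile of those 8251 genes, a log2 ratio of -0.11. With 1 library per group no difference has a replicate check. Each interval on a gene's own ratio is a 95% Clopper-Pearson interval, which covers counting error only and says nothing of how cultures vary.

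Insr, which encodes the insulin receptor, lies on chr8:3122061-3279617 in the GRCm38 annotation GENCODE M21. It had 8013 counts in NC cells and 7169 in knockdown cells. This left 83.1% of the control level (interval 80.5% to 85.8%), a log2 ratio of -0.27.

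Irs1 and Irs2, whose promoter windows both hold the adjoining motifs, lie on chr1:82233101-82291416 and chr8:10984681-11008458. Irs1 had 8071 counts in NC cells and 8521 in knockdown cells, or 98.1% of the control level (interval 95.1% to 101%). Irs2 had 1468 and 1263 counts, or 79.9% (interval 74.1% to 86.2%). The receptor and Irs2 were thus lower by more than counting error, whereas the interval of Irs1 included no difference.

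Pik3r1 encodes the p85α regulatory subunit of PI3-kinase and its shorter forms, which hold the enzyme at the docking proteins (chr13:101680563-101768217). With 54817 counts in NC cells and 52981 in knockdown cells, it was the most abundant of the 9 and stood at 89.8% of the control level (interval 88.7% to 90.8%). Akt2, the AKT form that insulin acts through in fat and muscle, lies on chr7:27591552-27640826. It had 13805 and 12635 counts, or 85.0% of the control level (interval 83.0% to 87.1%).

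Foxo1 and Tbc1d4 are the AKT substrates of the axis. Foxo1 (chr3:52268336-52353221) had 3414 counts in NC cells and 2660 in knockdown cells. Its level was 72.4% of the control level (interval 68.8% to 76.2%), a log2 ratio of -0.47, and it lay farther below 0 than the other 7 genes with at least 1000 counts. Tbc1d4, which encodes the Rab GTPase-activating protein AS160 (chr14:101442360-101609191), had 6656 and 6268 counts, or 87.5% (interval 84.5% to 90.5%).

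Slc2a1 encodes GLUT1, the transporter of basal glucose uptake (chr4:119108711-119137983). It had 6864 counts in NC cells and 6272 in knockdown cells, or 84.9% of the control level (interval 82.0% to 87.8%). Slc2a4 encodes the insulin-responsive GLUT4 (chr11:69942539-69948188) and had 26 counts in NC cells and 17 in knockdown cells. The ratio of 61.4% had an interval from 30.9% to 116%, so no difference of Slc2a4 was detectable from these counts. Genes around Slc2a4 also had few counts, as described below, and its count is not read as the level of its mRNA.

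**Figure D1:**
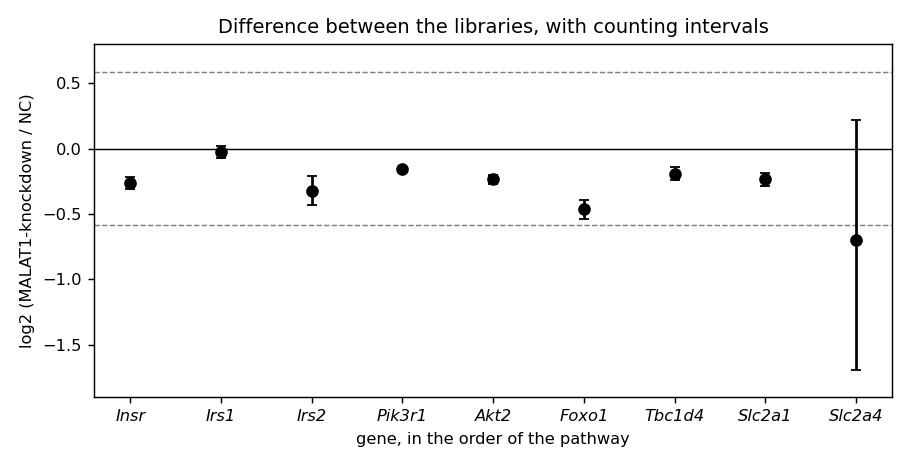
Log2 ratio of MALAT1-knockdown over NC for each gene of the axis, with 1 library per group. Points are ratios of scaled counts, bars are 95% Clopper-Pearson intervals for counting error, and dashed lines mark 1.5-fold; the 8 genes with at least 1000 counts lie between -0.47 and -0.03, and the bar of Slc2a4 runs from -1.69 to 0.22.

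A gene was called when its ratio passed 1.5-fold in either direction. Of the 9 genes, 1 was called lower and 0 higher, beside 11.9% called lower and 8.29% called higher over all 17356 genes, so the share of axis genes called was near that of all genes. The called gene was Slc2a4, whose interval included no difference, and it was not called at 2-fold. Among genes with a mean of at least 1000 counts, 2.84% were called lower and 1.43% higher, and 0 of the 8 genes of the axis in that range were called.

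Levels were compared between genes per kilobase of the longest protein-coding GENCODE M21 transcript. In NC cells Pik3r1 was first, at 134 CPM per kb, followed by Akt2 at 52.6, Slc2a1 at 36.5, Tbc1d4 at 17.8, Irs1 at 15.3, Insr at 14.8, Foxo1 at 6.83 and Irs2 at 4.02. Slc2a4 was last, at 0.179 CPM per kb, but genes around it that nearly all cells use also had few counts, so this value is not read as the level of its mRNA. The order was the same in knockdown cells. The 95% Poisson intervals of Irs1 (14.96 to 15.6) and Insr (14.5 to 15.2) overlapped in NC cells, and in knockdown cells those of Tbc1d4 (15.2 to 15.95) and Irs1 (14.7 to 15.3) did. Per kilobase of all annotated exons joined, Slc2a1 came before Akt2 and Irs1 before Tbc1d4 in NC cells, so these neighbours have no fixed order.

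**Figure D2:**
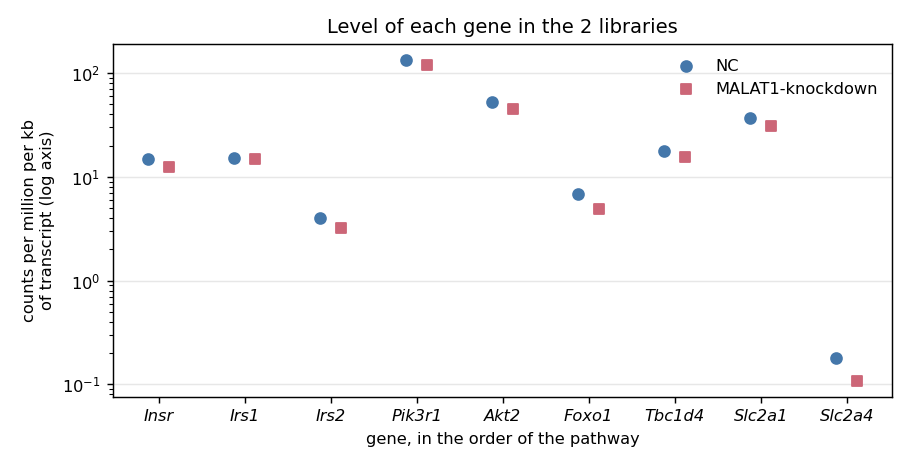
Level of each gene in CPM per kilobase of its longest protein-coding transcript, on a log axis, in the NC library (circles) and the MALAT1-knockdown library (squares). Pik3r1 is highest at 134 in NC cells and 120 in knockdown cells, and Slc2a4 is lowest at 0.179 and 0.108.

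The balance between related genes was compared within each library, where no scaling enters. Irs1 had 5.50 counts for each count of Irs2 in NC cells and 6.75 in knockdown cells, so the ratio was multiplied by 1.23 (95% interval of the odds ratio 1.13 to 1.33). Per kilobase, Irs1 made up 78.8% of the IRS family in NC cells and 82.2% in knockdown cells. Irs3, a docking protein of rodent fat cells, had 12 and 4 counts, and Irs4 had 0 in both.

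Akt2 made up less of the AKT family in knockdown cells, and Akt1, the widely expressed form, made up more. Akt1 had 17923 counts in NC cells and 23157 in knockdown cells, so the ratio of Akt2 to Akt1 went from 0.770 to 0.546, a change of 0.708 (interval 0.687 to 0.731). Per kilobase the share of Akt2 in the AKT family went from 29.1% to 22.8%. For PI3-kinase, the ratio of Pik3r1 to Pik3r2, another regulatory subunit, was multiplied by 0.917 (interval 0.890 to 0.944). Of 8 pairs computed, the ratio of Slc2a1 to Slc2a8, another glucose transporter, was the 1 whose interval included no change, with 6.87 in NC cells, 7.31 in knockdown cells and a change of 1.06 (interval 0.965 to 1.17).

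Foxo1 stood at 0.229 counts for each count of Foxo3 in NC cells and at 0.160 in knockdown cells, a change of 0.697 (interval 0.659 to 0.736). Foxo3, a FoxO factor with overlapping targets, had 14913 and 16674 counts. Tbc1d4 to Tbc1d1, its close relative and the more prominent form in muscle, went from 2.96 to 2.33, a change of 0.787 (interval 0.737 to 0.840). Insr to Igf1r, the receptor of the insulin-like growth factors, went from 1.26 to 0.971, a change of 0.771 (interval 0.736 to 0.807). Igf1r had 6361 counts in NC cells and 7385 in knockdown cells. In the pairs of Insr, Akt2, Foxo1 and Tbc1d4, the gene of the insulin axis was lower, and its partner higher, in knockdown cells than in NC cells. In the other pairs computed, both genes had log2 ratios below 0, with Pik3r2 at -0.03 and Slc2a8 at -0.33. Foxo4, a FoxO gene not used as a partner, was at -0.08. The pairs were chosen after their values were seen.

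**Figure D3:**
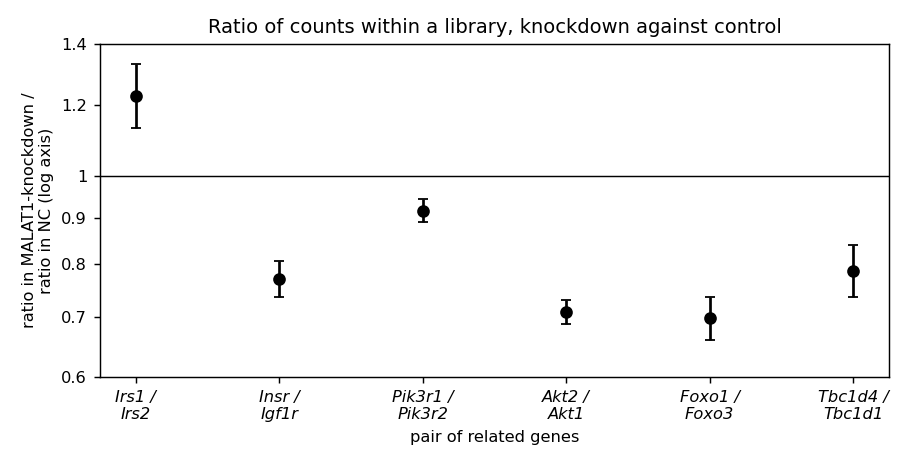
Ratio of the counts of 2 related genes in the MALAT1-knockdown library divided by the same ratio in the NC library, on a log axis, with 95% intervals for counting error. The ratio of Irs1 to Irs2 lies above 1 at 1.23, and the other 5 lie below 1, from 0.697 for Foxo1 to Foxo3 up to 0.917 for Pik3r1 to Pik3r2.

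The rest of the pathway was read from 9 lists written by hand, with 111 genes in all, of which 98 were tested. The median log2 ratio over these was -0.03. Past 1.5-fold, 10 were lower (10.2%) and 1 was higher (1.02%) in knockdown cells, beside 11.9% and 8.29% of all genes tested. Among their 81 genes with a mean of at least 1000 counts, 6 were lower (7.41%) and 0 higher, beside 2.84% and 1.43% of all genes with that many.

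Adaptors and docking proteins around the receptor had a median of -0.07 over 10 genes tested, with 2 called lower. Sh2b2, which encodes the adaptor APS that binds the active insulin receptor, had 3356 counts in NC cells and 1676 in knockdown cells, a log2 ratio of -1.11 (interval -1.19 to -1.02). The other was Irs3, which had few counts and an interval from -3.78 to 0.03. Inhibitors of the receptor, such as the phosphatase gene Ptpn1 and the adaptor gene Grb10, had a median of 0.05 with 0 of 9 called.

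Other PI3K and AKT enzymes and their inhibitors had a median of 0.06 over 13 genes. Trib3, a pseudokinase that binds AKT, was called lower, with 1671 and 758 counts and a log2 ratio of -1.25 (interval -1.37 to -1.12). Pik3cd, with 10 and 24 counts, was the 1 gene called higher, named after its values were seen. The mTOR complexes and their partners had 0 of 12 called and a median of -0.07. Of the 12, 11 lay below 0, beside 8744 of all 17356 genes tested. The lowest of the 12 was Eif4ebp1, a repressor of translation that mTOR inactivates, at -0.55.

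Among 8 other AKT substrates the median was -0.06 and 1 was called. Pde3b, the phosphodiesterase through which insulin restrains lipolysis, had 1476 counts in NC cells and 717 in knockdown cells, a log2 ratio of -1.15 (interval -1.28 to -1.02). Genes described as FoxO targets had a median of -0.25 over 13 tested, with 4 called lower (30.8%) and 0 higher. Over all genes tested, 11.9% were called lower and 8.29% higher. Pck1, of glyceroneogenesis, had 93 and 12 counts, Pnpla2, the lipase that starts triglyceride breakdown, 46443 and 23306, and Trim63, a ubiquitin ligase known from muscle, 295 and 182. The fourth was Bcl6, a transcriptional repressor, with 4434 and 3072 counts. Pck1 and Pnpla2 are also genes of mature fat cells. Sesn1, Sesn3 and Fbxo32 in the same list had log2 ratios of -0.02, 0.01 and 0.20. Txnip, Gadd45a and Ccng2, not called either, were lower, at -0.37, -0.28 and -0.25. In all, 5 of the 13 tested lay above 0 and 8 below.

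The machinery that moves GLUT4 vesicles had a median of 0.01 over 25 genes, and 1 was called. Sort1, the sorting receptor that builds GLUT4 storage vesicles, had 3939 counts in NC cells and 2122 in knockdown cells, a log2 ratio of -0.999 (interval -1.08 to -0.92). Rab10, the Rab that TBC1D4 acts on in adipocytes, had 12900 and 14825 counts and a log2 ratio of 0.09. Lnpep, which encodes the vesicle aminopeptidase IRAP, had 9001 and 9715 counts, or 100.2% of the control level.

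Apart from Slc2a4, whose count is not read as its mRNA level, the other genes listed from the Slc2a and Slc5a transporter families had few counts beside Slc2a1. Per kilobase, Slc2a1 made up 74.8% of the counts of 13 transporter genes in NC cells and 73.1% in knockdown cells. The 13 include Slc2a4 at its low count, so these shares do not compare GLUT1 with GLUT4 mRNA. Slc2a8 had 999 and 858 counts, Slc2a10 489 and 664, Slc2a13 273 and 292, and Slc2a9 140 and 207. Slc2a6 had 9 counts in each library, Slc2a12 had 3 in each, and Slc2a2 had 0 in each, which allows up to 3 counts per library. Slc2a3 and Slc2a5 had 1 and 0 counts, Slc5a1 had 0 and 1, and Slc5a2 had 1 and 2. Among 11 such genes, 5 were tested and 0 called. Of the hexokinases, which trap glucose in the cell, Hk2, the insulin-regulated form, had 7466 and 5521 counts and a log2 ratio of -0.54, and Hk1 had 22972 and 25788 counts and one of 0.06. Slc2a1 was thus lower by less than Hk2, with a ratio between them that went from 0.919 to 1.14, a change of 1.24 (interval 1.18 to 1.30).

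**Figure D4:**
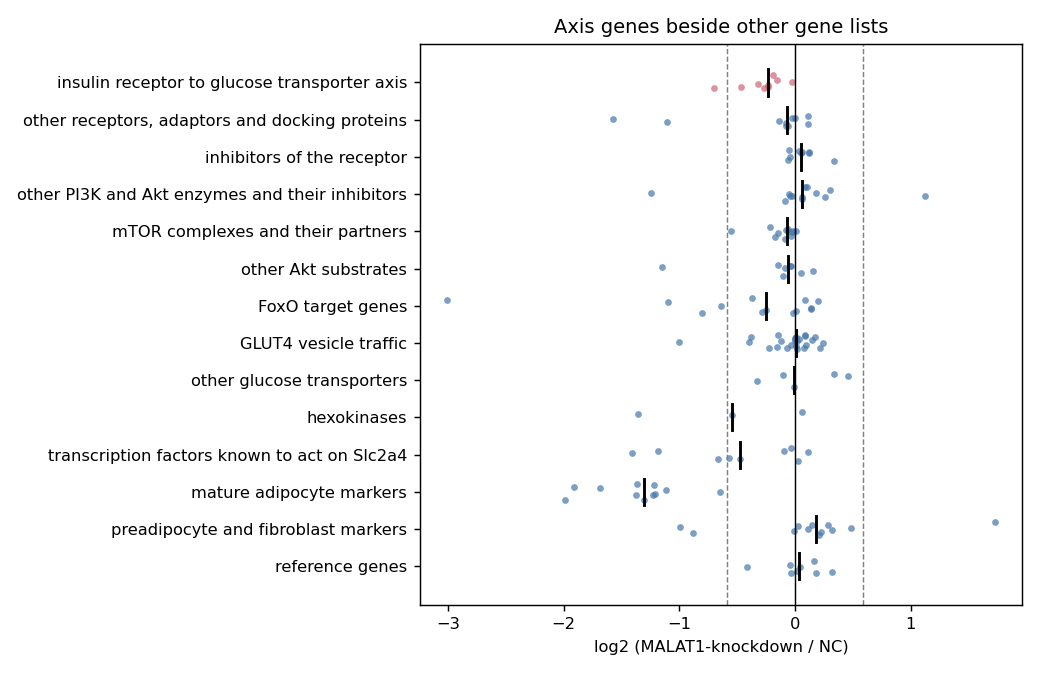
Log2 ratio of MALAT1-knockdown over NC for each gene tested in the insulin axis (red) and in other gene lists (blue), with a black bar at each list's median and dashed lines at 1.5-fold. The axis has its median at -0.24, the mature adipocyte markers at -1.30, the preadipocyte and fibroblast markers at 0.18 and the reference genes at 0.03.

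Slc2a4 lies in a run of genes on chromosome 11 that had few counts in both libraries. In the RefSeq order of protein-coding genes, 49 genes in a row from Acap1 to Inca1, Slc2a4 included, had under 1000 counts in NC cells, with 532 as the highest. The genes on either side of the run were Kctd11, with 1466 counts, and Kif1c, with 5732. The run holds genes that nearly all cells use. Psmb6, a subunit of the core proteasome, had 30 counts in NC cells and 16 in knockdown cells, whereas the 6 related subunit genes Psmb1 to Psmb5 and Psmb7, which lie elsewhere, had from 1797 to 9330 counts in NC cells. Pfn1, which encodes the actin-binding protein profilin, had 181 and 208 counts, and Gabarap, of autophagy, had 158 and 178. These genes were chosen after their values were seen.

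Ratios in the run scattered widely. Of the 25 other genes tested in it, 16 (64.0%) passed 1.5-fold, 6 higher and 10 lower, beside 34.6% of all tested genes with a mean under 1000 counts. These shares were not matched for count, since no gene of the run had more than 532 counts in NC cells. The log2 ratios ran from -4.08 for Rnasek to 2.44 for Eif5a, a translation factor gene with 185 and 1081 counts. The number of weak neighbours alone did not set Slc2a4 apart, since 15 of its 30 nearest genes had under 10 counts in both libraries and so had 18 of the 30 around Slc2a1, which itself had 6864 counts in NC cells. For the other 7 genes of the axis this number was between 3 and 11, with 15 neighbours counted for Insr near a chromosome end and 30 for the rest. The low count of Slc2a4 came with low counts of its widely expressed neighbours, and why they were low was not tested. The count of Slc2a4 is therefore not read here as the level of GLUT4 mRNA.

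**Figure D5:**
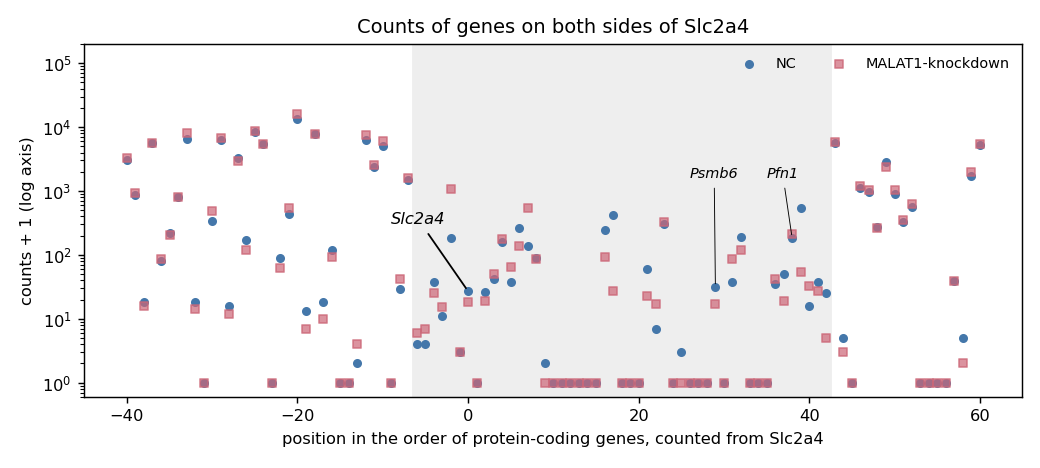
Counts plus 1, on a log axis, of protein-coding genes in chromosomal order around Slc2a4, in the NC library (circles) and the MALAT1-knockdown library (squares), with position 0 at Slc2a4. Grey marks the run of 49 genes with under 1000 counts in NC cells, in which Slc2a4 has 26 counts, Psmb6 30 and Pfn1 181.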

How the data were processed

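The authors made libraries from total RNA depleted of rRNA with a directional kit and deposited raw counts of reads per gene symbol, with no normalization. The submitters' processing notes name HISAT2 and GRCm38. The counting tool, the annotation, and the handling of strand, of multiply mapped and of duplicate reads are not given in the sources used here. Since strand use in counting is unknown, reads of overlapping antisense genes cannot be told apart from those of the gene itself.

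Here counts were divided by library totals times edgeR's TMM factors (edgeR 4.0.16, R 4.3.3), which were 0.992 for the control and 1.01 for the knockdown library. Log2 ratios used a prior count of 0.5. Genes with at least 10 counts over both libraries were tested. Intervals (95%, Clopper-Pearson for ratios, exact Poisson for levels, sample odds ratio for pairs of genes, scipy 1.17.1) cover counting error only, and repeated reads of 1 molecule make them too narrow. edgeR's quasi-likelihood test needs replicates and was not used. The text prints no p-value between the conditions, and the exact test named below rests on an assumed spread, not a measured one. The fit was run on simulated data with known fold changes. These were drawn with counting error only, so the simulation says nothing of spread between cultures. Named genes are the 9 genes, Malat1, and up to 3 called genes per list with at least 100 counts in 1 library, ordered by size of the log2 ratio. Called genes with fewer counts (Irs3, Pik3cd, Pck1, Cd34 and Ibsp) and named genes that were not called were chosen after their values were seen, as were the pairs of genes, the lengths and the run around Slc2a4. Gene models came from GENCODE M21 and promoters and gene order from RefSeq, both on GRCm38. The 9 genes, the lists and the motifs were chosen with earlier results of these data known. Alternatives were library totals, DESeq2 1.42.0 size factors, upper-quartile factors, other prior counts, filters and folds, and edgeR's exact test with a preset coefficient of variation of 0.2. One called gene of the lists is not reported here.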

Additional observations from a re-analysis of the deposited data

How the results depend on the processing

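Library totals, DESeq2's size factors, upper-quartile factors and a lower and a higher prior count left the count of called axis genes at 1, that of pathway genes at 11, and the direction of each axis gene as it was. Of 45 values of the axis genes under these settings, 44 stayed within their counting intervals, and Pik3r1 moved to -0.13 under library totals. At 2-fold, 0 axis genes and 1723 of all genes were called. With the whole interval required past 1.5-fold, the counts were 0, 7 pathway genes and 943 of all genes, and with the preset coefficient of variation they were 0, 1 (Pck1) and 117. Over all genes, 3499 were called at 1.5-fold, testing those with at least 1 count gave 8203 calls, and requiring 10 counts in each library gave 1971, which follows from the number of weak genes tested. With 8 neighbours on each side of Slc2a4, 4 had under 10 counts in both libraries. No paired analysis was possible because each group has 1 library. With 1 library per group the spread between cultures is not measured, so the differences of the axis genes and the spread between cultures cannot be told apart, and 26 and 17 counts are too few to bound the ratio of Slc2a4 closely.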

Other observations

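Transcription factors known to act on the Slc2a4 promoter were measured well although Slc2a4 was not. Their median log2 ratio was -0.48 over 9 genes, with 3 called lower (33.3%) and 0 higher. Over all genes tested, 11.9% were called lower and 8.29% higher. All 9 had a mean of at least 1000 counts, and among genes with that many 2.84% were called lower and 1.43% higher. Cebpa, an adipogenic factor, had 4071 counts in NC cells and 1652 in knockdown cells, and Nr1h3, which encodes the oxysterol receptor LXRα, had 1912 and 905. Klf15, a glucocorticoid-responsive factor, had 1538 and 1046. The factors not called differed. Pparg, which encodes PPAR-γ, had a log2 ratio of -0.57, Srebf1 one of -0.48 and Ebf1 one of -0.09. The MEF2 genes had log2 ratios of 0.03 for Mef2a, 0.11 for Mef2c and -0.03 for Mef2d.

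Vamp3, a vesicle SNARE, had 49 and 40 counts, while 10 of its 30 neighbouring genes had at least 1000 counts in NC cells, beside 4 of 30 for Slc2a4. The number was also low for Slc2a1, at 5 of 30, although Slc2a1 had 6864 counts in NC cells. Over all protein-coding genes tested its median was 13. Vamp3 was named after its values were seen. Among the fibroblast markers, Dcn and Lum were lower in knockdown cells, with log2 ratios of -0.88 and -0.99, and Cd34 was called higher, with 19 and 69 counts. Of the 4 osteoblast and chondrocyte markers tested, Col2a1, a cartilage collagen, had 378 and 692 counts and was called higher. Ibsp, with 6 and 16 counts, was called higher too, beside 8.29% of all genes tested. The interval of Ibsp ran from -0.12 to 2.95 and included no difference. Sox9 and Runx2, not called, had log2 ratios of 0.51 and 0.20.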
